A study of Mus musculus with 30 samples.

Results

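The genes described here carry glucose through glycolysis and into and out of glycogen. They were chosen by symbol: 35 symbols covering hexokinases, phosphofructokinases, aldolases, enolases, lactate dehydrogenases, glucose and lactate carriers, the 6-phosphofructo-2-kinases, and the enzymes and regulators of glycogen. They matched 36 of the 55426 gene entries of the deposited table, since Aldoa has a second, shorter entry on chromosome 7, and all 36 passed the filter on low counts in both tissues. Of these 36, 13 are muscle isoforms (such as Hk2, Pfkm, Eno3, Pygm and Slc2a4), 8 are isoforms named for other tissues (such as Pfkl, Pfkp, Eno2, Ldhb and Pygl), and 15 are ubiquitous or inducible (such as Hk1, Gapdh, Eno1, Slc2a1 and Ppp1r3c).

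The study measured poly-A RNA in mouse Achilles tendon and calcaneus, the heel bone that the tendon inserts on, after light-driven contraction of muscle. Every sample, controls included, carried the genotype given as Acta1,Ai32; Ai32 is a Cre-dependent channelrhodopsin reporter allele, and Acta1 is the skeletal muscle actin gene. In each tissue there were 5 groups of 3 samples: a naive group at day 0, and an unstimulated control and a stimulated group at each of day 5 and day 12. The titles call stimulated samples stimulated controls, while the treatment field gives stimulation; animal age and sex are not given in the labels. The labels do not state whether replicates were separate animals. The p-values therefore refer to the variation among these samples alone, and this may be technical. In unstimulated bone at day 5, samples 1 and 2 differed far less than any other replicates and were counted as 1 sample by summing, which left 15 tendon and 14 bone libraries. Library totals were 24488997 to 44566322 counts in tendon and 19255983 to 35035536 in bone.

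The tissue labels fit the markers only in part. In the tendon libraries, 20 markers of skeletal muscle fibres took 14.1% to 23.2% of all counts, whereas 10 tendon fibroblast markers took 0.319% to 4.79%. The bone libraries held more of the tendon fibroblast list by summed counts, 5.43% to 10.9%. That sum includes the collagen genes Col1a1 and Col1a2, which bone cells also express. Gene by gene, 7 of the 10 were higher and 2 lower in naive tendon than in naive bone (edgeR, adjusted p at most 0.05). Their median log2 difference was 1.46, and of all genes tested 33.3% were higher and 35% lower. Osteoblast and osteocyte markers summed to 3288 to 6605 CPM (counts scaled to a common library size within each tissue) in bone and to at most 73.0 CPM in tendon. "Tendon" below therefore means a tendon sample with a large muscle component. In such bulk samples, fewer cells of a type and less RNA per cell cannot be told apart.

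Glycolysis splits glucose into pyruvate, and pyruvate is reduced to lactate when the supply of oxygen or mitochondrial capacity is limiting. Several steps are run by families of isoenzymes, one member of which dominates in skeletal muscle: hexokinase 2 (Hk2) traps the glucose that the insulin- and contraction-responsive carrier GLUT4 (Slc2a4) brings in, and Pfkm, Eno3 and Pygm serve the committed step, the enolase step and the release of glucose from glycogen. Muscle contraction draws on glycogen, and the glycogen-targeting subunits of protein phosphatase 1 (Ppp1r3a, Ppp1r3c) favour its resynthesis.

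Hk2 (ENSMUSG00000000628) lies on chromosome 6 from 82725025 to 82774454, Eno2 (ENSMUSG00000004267) on chromosome 6 from 124760053 to 124769673, and Ppp1r3c (ENSMUSG00000067279) on chromosome 19 from 36731731 to 36736653, all on the minus strand of GRCm38. The upstream sequences of these 3 are shown first because the comparisons turned on them: Hk2 and Eno2 differed with stimulation, and Ppp1r3c differed between the later groups and naive. Each is the 250 bases before the start annotated by RefSeq (GRCm38.p6), 5′ to 3′ on the gene's strand. The gene coordinates above are those of GENCODE M21. For Ppp1r3c the RefSeq start lies inside them, so its window overlaps the gene as placed there. Capitals mark matches to the core letters bound by hypoxia-inducible factors, ACGTG or GCGTG read on either strand, and to the E-box CACGTG, which contains the first of these.
Hk2, chr6:82774455-82774704, minus strand: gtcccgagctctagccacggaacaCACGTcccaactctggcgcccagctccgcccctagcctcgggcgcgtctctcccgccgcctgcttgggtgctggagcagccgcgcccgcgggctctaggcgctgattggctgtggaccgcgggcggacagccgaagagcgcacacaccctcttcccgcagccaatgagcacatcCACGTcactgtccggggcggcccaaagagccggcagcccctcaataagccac
Eno2, chr6:124769674-124769923, minus strand: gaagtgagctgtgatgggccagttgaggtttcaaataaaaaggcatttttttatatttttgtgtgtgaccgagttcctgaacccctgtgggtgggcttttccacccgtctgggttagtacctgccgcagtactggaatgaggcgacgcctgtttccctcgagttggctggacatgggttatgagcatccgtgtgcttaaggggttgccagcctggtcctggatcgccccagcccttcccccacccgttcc
Ppp1r3c, chr19:36736605-36736854, minus strand: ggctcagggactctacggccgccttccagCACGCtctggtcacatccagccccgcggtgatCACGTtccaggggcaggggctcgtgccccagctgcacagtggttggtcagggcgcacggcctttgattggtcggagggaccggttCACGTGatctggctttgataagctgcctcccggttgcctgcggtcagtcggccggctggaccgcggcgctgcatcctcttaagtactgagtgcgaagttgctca

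The Hk2 window read CACGT at positions -226 to -222 and -52 to -48, counted back from the RefSeq start. The Ppp1r3c window read CACGC at -221 to -217, CACGT at -189 to -185 and the E-box at -104 to -99. The Eno2 window held none of these letters. Windows were found for 34 of the 35 symbols, 52 windows in all; ACGTG was in 36.5% of them and in 16.6% of all 32851 windows, and GCGTG in 50% against 28.2%. The E-box was in 9.62% against 6.02%. Of the other motifs searched on both strands, the AP-1 site TGANTCA was in 1.92% against 6.75%, the cyclic AMP element TGACGTCA in 1.92% against 1.55%, the NR4A element AAAGGTCA in 3.85% against 1.34%, and the ERR element TCAAGGTCA in 0 of 52 against 0.387%. These matches describe letters only; GC content, which was 69.6% in the Hk2 window and 54.4% in the Eno2 window, was not matched.

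In naive tendon both muscle isoforms and ubiquitous members stood among the highest. Per length, as CPM per kilobase of transcript, the highest levels were those of Aldoa (5256), Gapdh (4729), Eno3 (1815), Pkm (1250) and Pygm, muscle glycogen phosphorylase (1170). Hk2 was 19th of 36 at 61.7 CPM per kb, Eno2, the enolase named for neurons, was 34th at 1.702, and the brain aldolase Aldoc was last at 0.2003. In naive bone the order began with Gapdh (1026), Aldoa (720), Pkm (421) and Ldha (261), and Eno1 (178), the ubiquitous enolase, stood above Eno3 (163).

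Naive tendon and naive bone differed in 32 of 36 members, 26 higher and 6 lower in tendon (edgeR, adjusted p at most 0.05), against 68.4% of all 19845 genes tested (33.3% higher and 35% lower). The median log2 difference was 2.41 over the members and -0.06 over all genes. All 13 muscle isoforms were higher in tendon, with a median log2 difference of 3.55: Phkg1, the catalytic subunit of phosphorylase kinase, by 5.38, Pygm by 4.83, Ppp1r3a by 4.70 and Pgam2 by 4.41. The 6 that were lower were Pygl, liver glycogen phosphorylase (-3.28), Aldoc (-1.96), Pgam1 (-1.52), Hk1 (-1.07), Pfkp (-0.67) and Pfkl (-0.61). Muscle fibre markers differed in the same direction, 16.1% ± 2.001 of counts in naive tendon and 1.13% ± 1.07 in naive bone (SD, n = 3 each), and their part in the difference was not tested.

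The share of the muscle isoform, computed per length, was at least 84.49% in every tendon library for hexokinase, phosphofructokinase, phosphoglycerate mutase, enolase, glycogen phosphorylase and the glucose carriers, and was lower in bone. Aldolase was an exception, with Aldoa at group means of 99.76% to 99.93% in bone, and so were the bifunctional regulators, of which Pfkfb1 made up group means of 14.5% to 19.4% in tendon. Hk2 made up 86.7% ± 1.92 of hexokinase 1 and 2 transcripts in naive tendon (SD, n = 3), 89.6% ± 1.54 in unstimulated tendon at 12 days and 95.0% ± 1.59 in stimulated tendon at 12 days. In bone the group means for Hk2 lay between 28.5% and 43.4%. Group means for Pfkm were 98.4% to 99.3% in tendon and 66.7% to 87.7% in bone, and those for Pygm, of Pygm and Pygl together, 99.7% to 99.9% and 46.2% to 85.9%. The spread in bone was wide: in naive bone, Pfkm was 66.7% ± 28.1 (SD, n = 3).

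**Figure D1:**
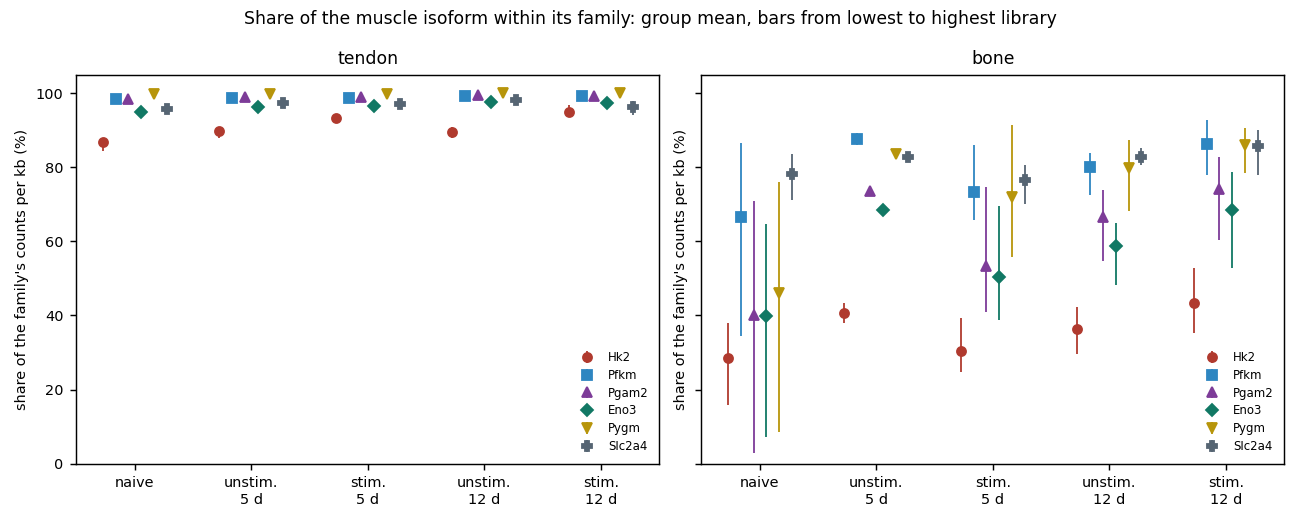
Share of the muscle isoform within 6 families (hexokinase, phosphofructokinase, phosphoglycerate mutase, enolase, glycogen phosphorylase and glucose carriers; y axis, percent of the family's CPM per kb) in the 5 groups of each tissue; points are group means and bars run from the lowest to the highest library. For these 6 the tendon shares lie near the top, whereas many bone bars are wide, as for Pfkm in naive bone (66.7% ± 28.1).

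At 12 days, stimulated tendon held more Hk2 and more Eno2 than unstimulated tendon, and no other member passed the test. Hk2 was at 993, 672 and 705 CPM in the 3 stimulated libraries and at 273, 300.0 and 316 CPM in the 3 unstimulated ones. Every stimulated library stood above every unstimulated one, and the first stimulated library stood highest. The rise was 2.67-fold (log2 1.41 ± 0.14 SE, edgeR quasi-likelihood test, adjusted p = 0.00132).

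Eno2 was at 9.83, 8.55 and 10.8 CPM with stimulation and at 3.57, 3.64 and 3.38 CPM without it, again with no overlap. Its rise was 2.76-fold (log2 1.46 ± 0.15, adjusted p = 0.00132). Eno2 stayed a trace transcript beside Eno3, the muscle enolase, at 7401, 5340 and 6117 CPM with stimulation and 5131, 5863 and 5139 CPM without. It made up 0.0932% ± 0.0127 of the 3 enolases in stimulated tendon and 0.0393% ± 0.00212 in unstimulated tendon (SD, n = 3, per length).

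These 2 calls compare with 0.345% of the 17108 genes tested, or 59 genes. Of the 36 members 27 lay above 0 and 9 below, 7 had an unadjusted p under 0.05, and the median log2 fold change was 0.11 against 0.01 over all genes. The shares of all genes above 0 and under that unadjusted p are not reported here, so neither tally is read as a trend of the members. Both calls held when each library was left out in turn, with log2 fold changes of 1.20 to 1.51 for Hk2 and 1.38 to 1.54 for Eno2. In a fit restricted to the 6 libraries compared, which has a less well estimated spread and called 0 of 15893 genes, the adjusted p was 0.127 for Hk2 and 0.0707 for Eno2.

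**Figure D2:**
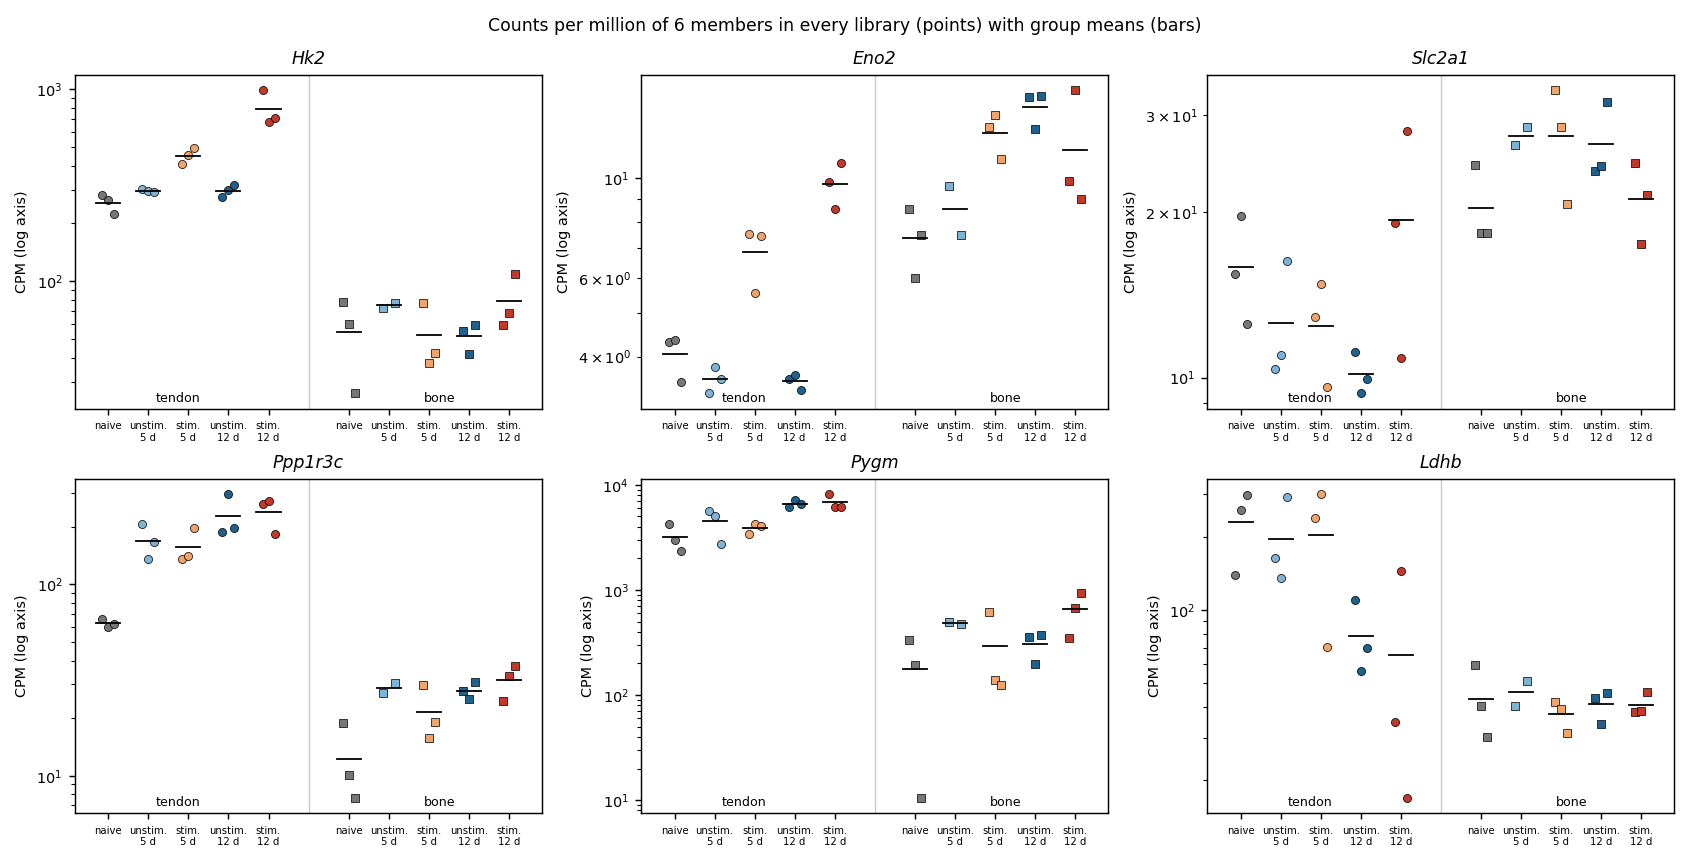
Level of 6 members in every library (y axis, CPM scaled within each tissue, log scale) in the 5 groups of tendon and of bone. Points are libraries and short bars are group means. Hk2 and Eno2 in tendon are higher in both stimulated groups than in the matching unstimulated groups, Ppp1r3c is lowest in naive samples, and Pygm in bone ranges from 10.6 to 944 CPM.

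Markers of cell types known for these genes were set beside the calls. The 20 muscle fibre markers took 21.6% ± 1.39 of counts in stimulated and 22.55% ± 0.604 in unstimulated tendon at 12 days, 0 of 20 were called, and their median log2 fold change was -0.05. With the mean log2 CPM of these markers as a covariate, the log2 fold change was 1.43 for Hk2 and 1.42 for Eno2, both with an adjusted p of 0.00192. The 10 neuron markers summed to 33.1 to 70.8 CPM in stimulated and 34.1 to 47.1 CPM in unstimulated libraries, none was at 0 in all libraries of either group, 5 of 10 could be tested and 0 were called. Their part in the Eno2 result was not tested.

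The glucose carrier Slc2a1 (GLUT1) and Eno1 came next in tendon at 12 days. Slc2a1 was at 19.1, 10.8 and 28.0 CPM with stimulation and 11.2, 9.36 and 9.96 CPM without. Eno1 was at 228, 166 and 307 CPM with stimulation and 182, 160 and 181 CPM without. In both genes the second stimulated library lay within the unstimulated range, and neither passed (log2 0.93 ± 0.30, adjusted p = 0.228, and 0.42 ± 0.16, adjusted p = 0.337). Without that library both passed in the same edgeR fit, Slc2a1 at 1.21 (adjusted p = 0.0192) and Eno1 at 0.61 (adjusted p = 0.0144), which made 4 calls. Leaving out the very library that overlapped favours a pass, so these passes are not read as a response of either gene. The share of all genes called in that fit is not reported here.

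The muscle isoforms other than Hk2 were not called at 12 days. Pfkm was at 4345, 3748 and 3403 CPM with stimulation and 3098, 3490 and 3208 CPM without, and the groups overlapped (log2 0.23 ± 0.19). Slc2a4, the contraction-responsive carrier, gave 381, 347 and 296 CPM against 318, 337 and 355 CPM (log2 0.02 ± 0.12). Pygm was at 8175, 6088 and 6216 CPM against 6152, 7098 and 6523 CPM (log2 0.05 ± 0.25). Ldha, the lactate dehydrogenase of muscle but counted here as ubiquitous or inducible, was not called either. It was at 3020, 2326 and 2508 CPM against 2502, 2762 and 2607 CPM (log2 -0.00 ± 0.21). In Slc2a4, Pygm and Ldha the first stimulated library was the highest of the 6 and another stimulated library the lowest. Hk1, the hexokinase of most other tissues, was at 29.6, 35.01 and 42.5 CPM against 34.1, 27.5 and 31.3 CPM (log2 0.21 ± 0.14).

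At 5 days, Eno2 alone passed in tendon. It was at 7.51, 5.54 and 7.45 CPM with stimulation and 3.31, 3.80 and 3.57 CPM without, with no overlap, a 1.92-fold rise (log2 0.94 ± 0.14, edgeR adjusted p = 0.0384). That is 1 of 36 members against 0.0585% of all genes, or 10 of 17108. The call was lost in 5 of the 6 fits that left out a library (log2 0.87 to 1.07, adjusted p up to 0.268) and in the fit to the 6 compared libraries alone (adjusted p = 0.208). With the muscle marker covariate Eno2 was at 0.89 (adjusted p = 0.0415), beside muscle fibre markers at 17.6% ± 0.696 of counts with stimulation and 19.96% ± 3.53 without.

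Hk2 at 5 days was at 408, 453 and 493 CPM with stimulation and 301, 295 and 291 CPM without. The libraries did not overlap, yet the difference, 1.52-fold (log2 0.61 ± 0.14), had an adjusted p of 0.181 in edgeR and 0.00881 in DESeq2. Over all members at 5 days 13 lay above 0 and 23 below, 3 had an unadjusted p under 0.05, and the median log2 fold change was -0.06 against -0.00 over all genes.

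The stimulation effect in tendon was not shown to differ between the days. The difference of the effects, 12 days minus 5 days, was 0.81 ± 0.20 for Hk2, 0.53 ± 0.20 for Eno2, 0.95 for Slc2a1 and 0.56 for Eno1, each with an adjusted p of 0.9999. No gene of 17108 passed this test (0.0%), and 4 members had an unadjusted p under 0.05.

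In bone, 0 members were called for stimulation at either day. At 5 days, edgeR called 0.0% of 18851 genes and DESeq2 also called 0 members, while 3 members had an unadjusted p under 0.05. At 12 days edgeR called 0.0371% of genes, all lower, and 2 members had an unadjusted p under 0.05. DESeq2 called 1 member at 12 days, Pfkp, the platelet phosphofructokinase. It was at 49.8, 55.6 and 42.3 CPM with stimulation and 63.5, 68.6 and 65.1 CPM without; the groups did not overlap (log2 -0.42 ± 0.09, adjusted p = 0.106 in edgeR and 0.00700 in DESeq2). The next smallest p-values at 12 days were those of Pfkfb3 (log2 -0.31, adjusted p = 0.291) and Pfkfb1 (log2 -0.40, adjusted p = 0.397), both of which set the level of fructose 2,6-bisphosphate, an activator of phosphofructokinase. At 5 days they were those of Ugp2, which makes UDP-glucose for glycogen (log2 -0.65, adjusted p = 0.536), Pfkl (log2 0.31, adjusted p = 0.546) and Eno2 (log2 0.56, adjusted p = 0.571).

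**Figure D3:**
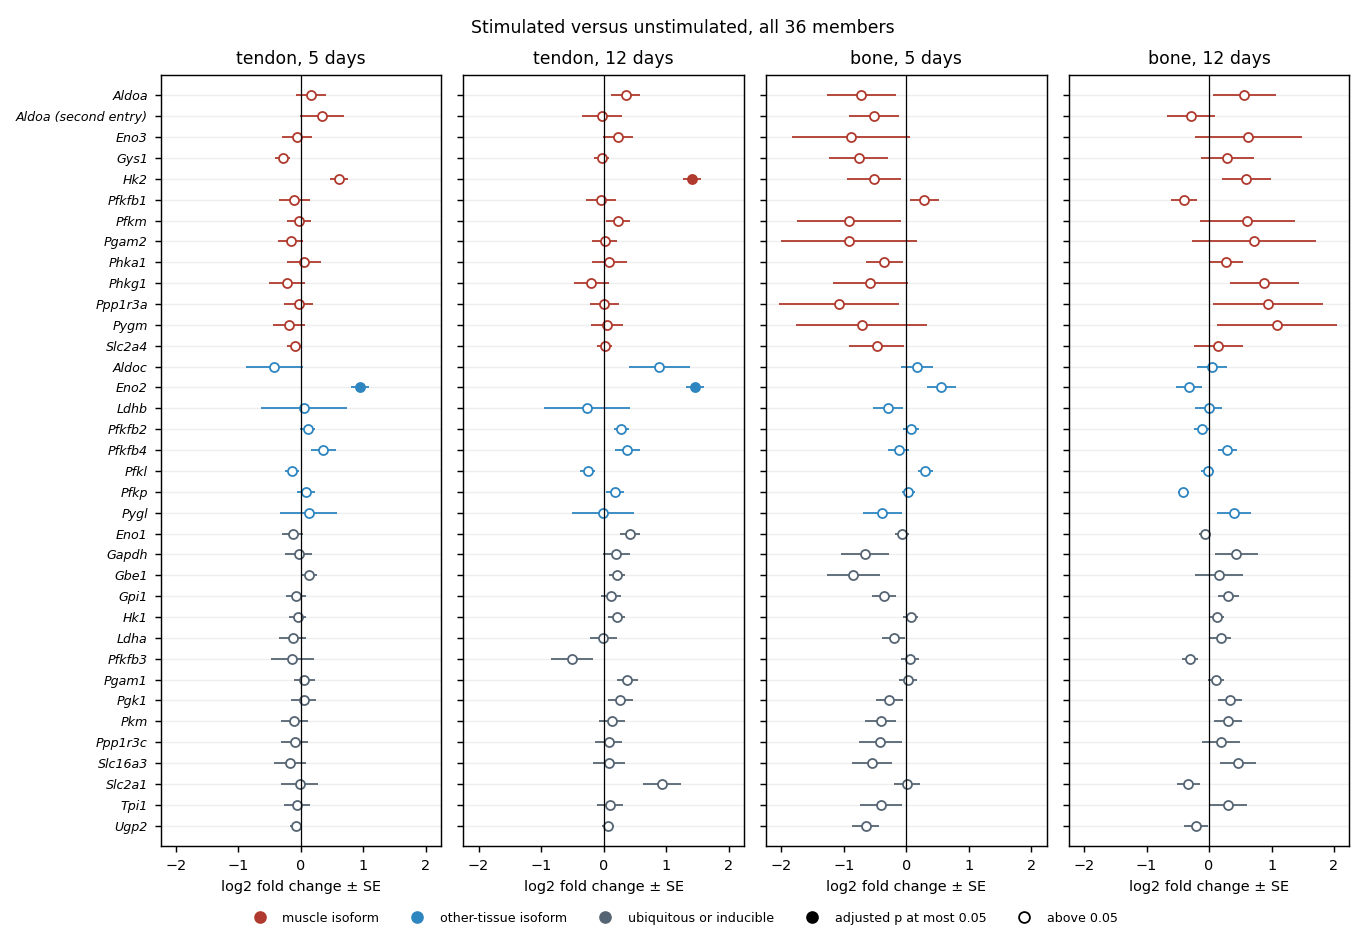
Log2 fold change of each member, stimulated over unstimulated (x axis), in tendon and bone at 5 and 12 days; bars are standard errors and filled points have an edgeR adjusted p at most 0.05. Filled points are Eno2 in tendon at 5 days and Hk2 and Eno2 in tendon at 12 days, and standard errors of muscle isoforms are much wider in bone.

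The muscle isoforms in bone varied together from library to library. At 5 days 12 of 13 lay below 0 with stimulation (median log2 fold change -0.72) and at 12 days 11 of 13 above 0 (median 0.60). Pygm was at 622, 140.0 and 126 CPM in stimulated bone at 5 days, 498 and 475 CPM in unstimulated bone at 5 days, 352, 670 and 944 CPM in stimulated bone at 12 days and 360, 198 and 371 CPM in unstimulated bone at 12 days. In naive bone it was at 331, 195 and 10.6 CPM. One stimulated library at 5 days stood above both unstimulated ones and the others below, and at 12 days one of the 3 stimulated libraries stood inside the unstimulated range.

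Hk2 in bone was at 59.1, 68.4 and 109 CPM in stimulated libraries and 55.1, 41.8 and 59.1 CPM in unstimulated ones at 12 days (log2 0.60 ± 0.39, adjusted p = 0.513). Eno3 was at 296, 625 and 849 CPM with stimulation and 476, 225 and 444 CPM without. Pfkm was at 281, 615 and 872 CPM with stimulation and 436, 253 and 468 CPM without. In both of these genes the first stimulated library lay within the unstimulated range.

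Muscle fibre markers moved with these values. They took 2.16%, 1.20% and 0.0194% of counts in the 3 naive bone libraries, 2.78%, 0.835% and 0.738% in stimulated bone at 5 days and 1.46%, 3.04% and 4.69% in stimulated bone at 12 days. The muscle isoforms summed to 0.3495%, 0.218% and 0.0588% of counts in the same naive libraries, and to 0.278%, 0.508% and 0.686% in stimulated bone at 12 days. The median log2 fold change of the 20 markers was -0.82 at 5 days and 0.73 at 12 days, with 0 called at either. Their part in the muscle isoform values was not tested.

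**Figure D4:**
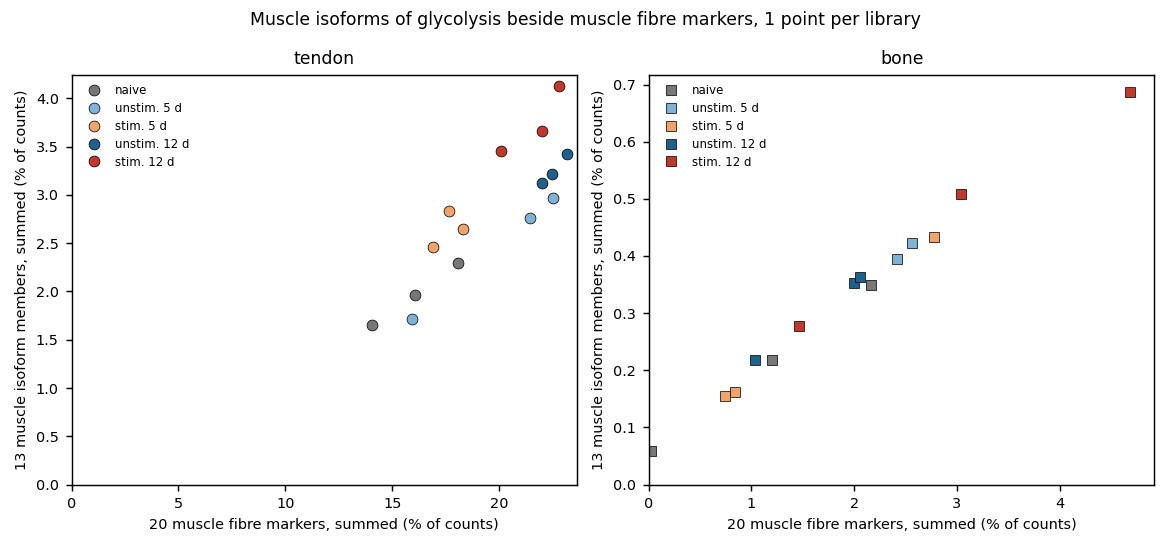
Summed share of the 13 muscle isoform members (y axis, percent of counts) against the summed share of the 20 muscle fibre markers (x axis, percent of counts), 1 point per library, for tendon and bone; the libraries of a tissue share this compositional scale. Naive bone spans 0.0194% to 2.16% on the x axis and 0.0588% to 0.3495% on the y axis.

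The response of Eno2 differed between the tissues at 12 days. In bone Eno2 was at 9.86, 15.8 and 9.01 CPM with stimulation and 15.2, 12.9 and 15.2 CPM without, so that the groups overlapped (log2 -0.32 ± 0.20, adjusted p = 0.4998). The stimulation effect in tendon minus that in bone was 1.74 ± 0.25 (edgeR, adjusted p = 0.00272). This was 1 of 36 members against 0.222% of 19845 genes, and the difference kept its call when each library was left out (1.61 to 2.02, adjusted p up to 0.0180). In the same difference 0 of 7 neuron markers and 0 of 9 Schwann cell markers were called, with medians of 0.59 and 1.105, and their part in it was not tested. For Hk2 the same difference was 0.76 ± 0.43 (adjusted p = 0.549). Without the second stimulated tendon library, Slc2a1 (1.498, adjusted p = 0.0201) and Eno1 (0.63, adjusted p = 0.0477) passed as well in edgeR, which made 3 calls. That library is the one that overlapped the unstimulated tendon range in both genes, so these passes are not read as a tissue difference. The share of all genes called in that fit is not reported here. At 5 days edgeR called 0 members and 0.0% of genes, with 4 members at an unadjusted p under 0.05, and DESeq2 called 0.

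The 12-day tendon groups held more of most muscle isoforms than naive tendon. All members together took 3.52% ± 0.499 of counts in naive tendon, 5.58% ± 0.234 in unstimulated and 6.26% ± 0.580 in stimulated tendon at 12 days (SD, n = 3). Both 12-day groups were compared with the same 3 naive libraries, so their results share those libraries, and they differ from naive in day as well as in treatment.

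In unstimulated tendon at 12 days 20 of 36 members passed, 18 higher and 2 lower, against 18.8% of all genes (8.17% higher and 10.6% lower). The median log2 fold change was 0.67 over the members and -0.03 over all genes. By role, the lactate exporter Slc16a3 (MCT4) rose by 1.38 on the log2 scale and Ldha by 0.92. Of the glycolytic enzymes, Eno3 (1.02), Pgam2 (1.01), Aldoa (0.98), Tpi1 (0.91) and Pgk1 (0.89) rose, as did Pfkfb1 (0.94), the muscle and liver isoform that controls fructose 2,6-bisphosphate. Of the glycogen genes, Ppp1r3c, Phka1 (1.27) and Phkg1 (1.09), which are subunits of phosphorylase kinase, and Pygm (1.05) rose. The 6 other members that rose lay between 0.58 and 0.87. The 2 that fell were Pgam1 (-0.53), the ubiquitous phosphoglycerate mutase, and Gbe1 (-0.40), the glycogen branching enzyme.

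Of the members that passed against naive tendon at 12 days, Ppp1r3c had the largest change in both groups. It was at 66.0, 60.2 and 62.1 CPM in naive tendon and at 187, 297 and 197 CPM in unstimulated tendon at 12 days (3.62-fold, adjusted p = 0.00250). In stimulated tendon at 12 days it was at 264, 273 and 183 CPM (3.82-fold over naive, adjusted p = 0.000657). Every later library stood above every naive one, while the stimulated and unstimulated libraries overlapped (log2 0.08 ± 0.21 between them). At 5 days it was already at 206, 136 and 166 CPM without and 136, 140.2 and 197 CPM with stimulation.

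Stimulated tendon at 12 days had 21 of 36 members past the test, 20 higher and 1 lower, against 24.4% of all genes (11.8% higher and 12.5% lower). The median was 0.89 over the members and -0.01 over all genes. By class, 10 of 13 muscle isoforms rose (median 0.95), 8 of 15 ubiquitous or inducible members rose (median 0.77), and of the 8 isoforms named for other tissues 2 rose and 1 fell. Hk2 rose by 1.62 (adjusted p = 8.83e-05), Eno2 by 1.26 and Pfkfb4, a 6-phosphofructo-2-kinase counted among the isoforms named for other tissues, by 1.05. Slc16a3 (1.46), Phka1 (1.36), Aldoa (1.33), Pgk1 (1.16), Pygm (1.10) and Gapdh (1.07) rose too, and Pfkl fell by 0.50.

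In unstimulated tendon neither Hk2 nor Eno2 differed detectably from naive: Hk2 was at 281, 264 and 224 CPM in naive tendon (log2 0.21 at 12 days) and Eno2 at 4.31, 4.36 and 3.52 CPM (log2 -0.20). Of isoforms named for other tissues, chosen here after their values were seen, Ldhb, the heart lactate dehydrogenase, was at 139, 257 and 295 CPM in naive tendon and at 110, 56.1 and 69.9 CPM in unstimulated tendon at 12 days (log2 -1.55, adjusted p = 0.135). Pygl was at 10.3, 9.36 and 6.58 CPM and at 2.82, 2.67 and 4.56 CPM (log2 -1.38, adjusted p = 0.0606). Both genes had no overlap between these groups, and neither passed in edgeR, while DESeq2 called Pygl (log2 -1.36, adjusted p = 0.0165).

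**Figure D5:**
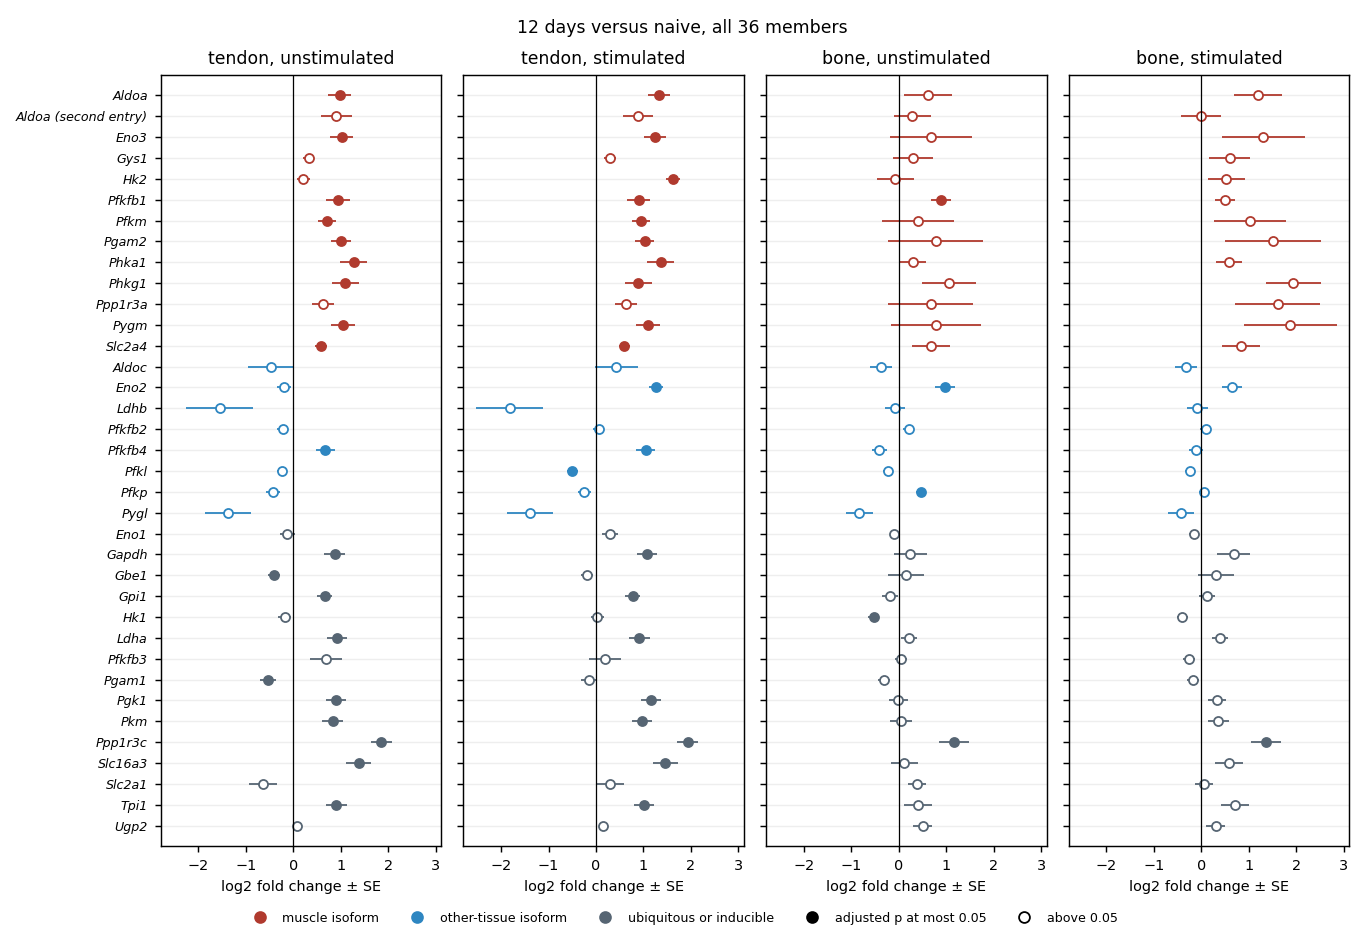
Log2 fold change of each member at 12 days against naive (x axis), unstimulated and stimulated, in tendon and bone; bars are standard errors and filled points have an edgeR adjusted p at most 0.05. In tendon most muscle isoforms lie right of 0 in both groups, Ppp1r3c lies farthest right, and Hk2 and Eno2 lie far right in the stimulated group alone (1.62 and 1.26 against 0.21 and -0.20).

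Markers moved with these differences too. Muscle fibre markers took 16.1% ± 2.001 of counts in naive tendon, with 11 of 20 higher in unstimulated tendon at 12 days (median log2 0.67) and 14 higher and 1 lower in stimulated tendon (median 0.64). Tendon fibroblast markers took 3.51% ± 1.44 of counts in naive, 0.672% ± 0.393 in unstimulated and 0.760% ± 0.411 in stimulated tendon at 12 days, and 8 of 10 were lower in unstimulated tendon. With the muscle marker covariate, 0 of 36 members passed in unstimulated against naive tendon at 12 days, where edgeR then called 8 of all genes and Ppp1r3c was at 1.75 (adjusted p = 0.0603). In stimulated against naive tendon 18 members passed with the covariate, all higher, beside 1777 of all genes. The unstimulated result also rested on single libraries: 5 members passed without the second naive library, 1 without the third naive library and 1 without the second unstimulated library.

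At 5 days fewer members differed from naive tendon. In stimulated tendon Ppp1r3c rose by 1.33, Hk2 by 0.82 and Eno2 by 0.75, which is 3 of 36 members against 2.29% of all genes, but 0 passed without the third naive library and 0 without the first stimulated one. In unstimulated tendon Ppp1r3c alone passed, at 1.43 (adjusted p = 0.0481), against 0.0351% of genes. That call was lost in 5 of 6 fits that left out a library, and 6 members passed without the third unstimulated library.

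In bone the glycogen-targeting subunit Ppp1r3c also passed against naive at 12 days, but its calls did not hold in every fit. Ppp1r3c was at 18.95, 10.1 and 7.68 CPM in naive bone, at 27.6, 25.1 and 30.9 CPM in unstimulated bone at 12 days (log2 1.17 ± 0.32, adjusted p = 0.0231) and at 24.6, 33.2 and 37.5 CPM in stimulated bone at 12 days (2.58-fold, adjusted p = 0.0376). No later library at 12 days fell into the naive range. Of the 8 adipocyte markers, 6 were higher than naive in unstimulated bone at 12 days (median log2 0.86), against 10.1% of all genes. In stimulated bone at 12 days 0 of 8 were called (median 0.38), against 4.54% of genes. The part of these markers in the Ppp1r3c result was not tested. With the muscle marker covariate the stimulated difference in Ppp1r3c was 0.89 (adjusted p = 0.1097). Its call was also lost in 4 of 6 fits that left out a library, without the second or the third naive library or the second or the third stimulated one (log2 1.14 to 1.84 over the 6 fits, adjusted p up to 0.1397). The unstimulated difference lost its call in 4 of 6 such fits too, without the second or the third naive library or the first or the third unstimulated one (log2 0.94 to 1.64, adjusted p up to 0.0934), and without a count filter (adjusted p = 0.0708) or with the compared libraries alone (adjusted p = 0.0519).

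Unstimulated bone at 12 days had 5 of 36 members past the test, 4 higher and 1 lower, against 21.8% of all genes (10.1% higher and 11.7% lower), so the members' share of 13.9% was below the background. Beside Ppp1r3c these were Eno2 (0.97 ± 0.21), Pfkfb1 (0.90 ± 0.21) and Pfkp (0.46 ± 0.09), which rose, and Hk1 (-0.53 ± 0.11), which fell. Eno2 was at 8.55, 5.99 and 7.48 CPM in naive bone and at 15.2, 12.9 and 15.2 CPM in unstimulated bone at 12 days, with no overlap. Neuron markers summed to 25.7 to 81.1 CPM in naive and 65.3 to 104.95 CPM in these unstimulated libraries, and of 7 tested 2 were higher and 1 lower (median log2 0.70). Of the 9 Schwann cell markers, glia of peripheral nerve, 0 were called and 9 lay above 0 (median log2 1.065), summing to 218 to 1396 CPM in naive and 787.5 to 2284 CPM in unstimulated bone at 12 days. Their part in the Eno2 result was not tested. Hk1 was at 115, 117 and 125 CPM in naive bone and 67.8, 90.3 and 89.3 CPM in unstimulated bone at 12 days. In the same comparison 9 of 9 erythroid markers tested were lower (median log2 -2.29), as were 6 of 10 neutrophil markers (median -1.32). The part of these blood cell markers in the Hk1 result was not tested. With the covariate 6 members passed, without the second naive library 3 did, and without the first naive library 8 did. The shares of all genes called in these fits are not reported here. In stimulated bone at 12 days Ppp1r3c was the 1 member called, against 4.54% of genes.

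At 5 days edgeR called 0 members in either bone group against naive, where 0.435% of genes passed in unstimulated and 0.228% in stimulated bone. Members with an unadjusted p under 0.05 numbered 5 and 6, and DESeq2 called 1 member in each, Ppp1r3c in unstimulated bone (log2 1.23, adjusted p = 0.0179) and Eno2 in stimulated bone (log2 0.79, adjusted p = 0.0201). Eno2 in stimulated bone at 5 days was at 13.02, 13.8 and 11.04 CPM, above all 3 naive libraries. In bone the change of the stimulation effect from 5 to 12 days was called for 0 of 36 members and 0.0% of genes; Eno2 was at -0.88 ± 0.31 (adjusted p = 0.437).

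Several members overlap other annotated genes, and the strand setting of the counting is not given in the sources used here. Hk2 overlaps the antisense gene Gm17034, Pfkm overlaps Senp1, Gapdh overlaps Iffo1, and Slc2a1 overlaps the antisense genes Gm12867 and Gm12868, so reads could not be told apart there if strand was ignored. The estimated counts also split reads between the 2 Aldoa entries, whose separate values are uncertain.

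The wider pathway was described with 49 other genes of glycolysis, glycogen, pyruvate and lactate handling, of which 41 could be tested in tendon and 44 in bone, and with 24 regulators of glucose use. For stimulation at 12 days 1 of 41 rose in tendon, against 0.345% of all 17108 genes: Slc16a1, the lactate carrier MCT1. It was at 97.9, 57.0 and 81.0 CPM with stimulation and 35.2, 28.5 and 34.6 CPM without, with no overlap (log2 1.26 ± 0.20, adjusted p = 0.0186). In naive tendon Slc16a1 was at 44.4, 56.4 and 62.0 CPM. Unstimulated tendon at 12 days was lower than naive (log2 -0.73 ± 0.19, edgeR adjusted p = 0.0249). Stimulated tendon at 12 days was not called against naive, and its second library lay within the naive range. Of the 24 regulators 1 rose with stimulation at 12 days, against the same share of all genes: Ppargc1a, a coactivator of oxidative metabolism. It was at 78.2, 42.6 and 27.0 CPM against 16.1, 14.7 and 18.3 CPM (log2 1.59 ± 0.30, adjusted p = 0.0483). At 5 days in tendon and at both days in bone 0 of either list passed.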

How the data were processed

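Samples were grouped by tissue, day and treatment as labelled. RNA came from a PureLink RNA Mini kit and the libraries were poly-A selected, per the labels' protocols. The submitters' processing notes name cutadapt 2.3, FastQC 0.11.8, MultiQC 1.7, STAR 2.7.8a, RSEM 1.3.3 and GRCm38. Step order, annotation release and strandedness were "not given in the sources used here". Expected counts per gene, as the authors deposited them, were already whole (0 values not whole); they share reads of similar genes by an estimate. Of 55426 identifiers, 99.5% matched GENCODE M21, which gave coordinates and transcript lengths (the median over basic protein-coding transcripts).

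Tests used edgeR 4.0.16 (R 4.3.3) with TMM scaling, filterByExpr (minimum count 10, minimum total 15), a quasi-likelihood model of every library of the tissue, or of both tissues for differences between them, and Benjamini-Hochberg adjustment over all genes tested, with a threshold of 0.05. Standard errors follow log2 fold changes as ±. Levels are CPM over totals that were TMM-scaled within each tissue, so CPM of tendon and of bone do not share a scale. The tests between tissues used a joint scaling, and log2 CPM used a prior count of 2. The script was checked on simulated counts. The 17 comparisons were stimulated against unstimulated (4), each group against naive (8), differences of the stimulation effect between days and tissues (4) and naive tendon against naive bone (1).

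In unstimulated bone at day 5, samples 1 and 2 differed by a chi-square per gene of 6.28; the 29 remaining replicate pairs gave 18.8 to 208. Their counts were summed. Alternatives were DESeq2 1.42.0, its size factors, no count filter, a replicate block, the pair kept apart, a muscle marker covariate, the compared libraries alone, and each library left out.

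The members and lists were chosen with earlier results of these data known. Tallies of members above or below 0, or at an unadjusted p under 0.05, are given without the matching share of all genes. They describe the members only. Members past the threshold were named, or the 12 with the largest change at a mean of at least 1 CPM where more passed, or the 3 with the smallest p where none did; 10 members set by name also have values per library.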

Additional observations from a re-analysis of the deposited data

Results flagged for a closer look

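The stimulation effect on Eno2 at 12 days differed between the tissues, by a test of the difference itself: it was 1.74 higher in tendon than in bone on the log2 scale (SE 0.25, edgeR, adjusted p = 0.00272). In tendon all 3 stimulated libraries stood above all 3 unstimulated ones. In bone 2 of the 3 stimulated libraries stood below all unstimulated ones and 1 above. The difference was 1.75 with a replicate block and 1.74 in DESeq2.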

How the results depend on the processing

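No named member changed direction under an alternative that was run. Direction was not checked in this way for the other members or the lists. Of 905 values of named members under alternatives, 814 kept their side of the threshold, 87 lost it and 4 gained it. With the samples of equal replicate number as a block, members called for stimulation fell to 0 in tendon at 5 days (Eno2, adjusted p = 0.0638), as they did for unstimulated against naive tendon at 5 days, and stayed at 2 in tendon at 12 days; Pygl passed in unstimulated against naive tendon at 12 days (-1.51, adjusted p = 0.0203). The numbers were not shown to pair the samples: deviations of same-numbered samples correlated at -0.166 to 0.296, and not every sample correlated best with its own number.

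DESeq2 called 2 members for stimulation in tendon at 5 days and 1 in bone at 12 days. Against naive it called 1 in unstimulated and 1 in stimulated bone at 5 days and 4 in stimulated bone at 12 days. Member counts under alternatives, in this section and above, are mostly given without the share of all genes called in the same fit. They show only how the calls depend on the processing. With only the compared libraries, 0 were called for stimulation in tendon at 5 days and 0 at 12 days, 0 in unstimulated tendon against naive at 5 days and 0 in stimulated bone against naive at 12 days. Without a count filter, 0 were called in unstimulated tendon at 5 days and 0 in stimulated bone at 12 days against naive. The muscle marker covariate left 0 in unstimulated tendon at 5 days, 0 at 12 days and 0 in stimulated bone at 12 days, all against naive. With the near-identical pair kept apart, 2 were called in stimulated bone against naive at 12 days.

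Leaving out 1 library gave, for stimulation in tendon, 0 to 1 calls at 5 days and 2 to 4 at 12 days. Against naive it gave 0 to 6 in unstimulated and 0 to 3 in stimulated tendon at 5 days, 1 to 19 in unstimulated tendon at 12 days, 0 to 1 in unstimulated bone at 5 days (1 without the first naive library), 3 to 8 in unstimulated and 0 to 1 in stimulated bone at 12 days. The difference between tissues at 12 days gave 1 to 3. The cause of these shifts was not tested. With 3 samples a group, members near the threshold are not settled by these data, and Eno2 in tendon rests on fewer than 11 CPM in each library.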

Other observations

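Against naive tendon, 15 of the 41 other pathway genes rose and 5 fell in stimulated tendon at 12 days, and 12 rose and 5 fell in unstimulated tendon; both sets share the naive libraries. Of all genes 11.8% rose and 12.5% fell in the stimulated group, and 8.17% rose and 10.6% fell in the unstimulated one, so the numbers that fell were near those shares. In stimulated tendon Fbp2, the muscle fructose bisphosphatase, rose by 1.80 ± 0.21 on the log2 scale, Stbd1, a glycogen-binding protein, by 1.41 ± 0.30, Pgm1, which links glycogen and glycolysis, by 1.40 ± 0.27 and Tigar by 1.32 ± 0.23. The 5 that fell included Slc16a7, a monocarboxylate carrier (-1.46 ± 0.35), and Slc2a10 (-1.31 ± 0.25). Slc16a1 was lower in unstimulated than in naive tendon at 12 days (-0.73 ± 0.19, edgeR adjusted p = 0.0249). Among the regulators Nr4a3, an orphan nuclear receptor, rose in stimulated tendon against naive by 3.50 ± 0.52 (adjusted p = 0.00238) and Ppargc1a by 1.997 ± 0.30. These genes were chosen after their values were seen. Muscle fibre markers were higher in both 12-day groups than in naive tendon, and their part in these changes was not tested.

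In unstimulated bone at 12 days against naive bone, 2 of 44 other pathway genes rose and 6 fell, against 10.1% and 11.7% of all genes, so the number that fell was near that share. Those that fell included genes of red and white blood cells: Pklr, the red cell pyruvate kinase (-2.10 ± 0.41), Bpgm, which makes 2,3-bisphosphoglycerate in red cells (-1.85 ± 0.44), and Hk3, a hexokinase of leukocytes (-1.24 ± 0.34). The erythroid markers summed to 17675 to 53066 CPM in naive and 3983 to 8166 CPM in unstimulated bone at 12 days, with 9 of 9 tested lower, and the neutrophil markers to 4325 to 9960 and 1991 to 3732 CPM, with 6 of 10 lower. Their part in these falls was not tested.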
